A study of Mus musculus with 20 samples.

Results

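The 9 genes described here are Shh, the ligand Sonic hedgehog, Noto, a transcription factor of the node and notochord, and 7 genes that receive, carry or answer the Hedgehog signal (Ptch1, Smo, Boc, Gli1, Gli2, Gli3 and Hhip). They were taken by gene name from tables of 54446 gene IDs. Of the 9, 6 reached a mean of 1 TPM (a transcript abundance per unit of gene length, scaled so that each library has the same sum) and entered the tests with 14290 genes in all. Shh, Noto and Hhip fell below that mean.

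Bulk RNA sequencing covered 15 libraries of structures grown from F1G4 mouse embryonic stem cells with 2 fluorescent reporters in 1 line (T::H2B-mCherry/Sox2::H2B-Venus). All 5 groups had aggregated for 48 h and then received a pulse of 3 µM CHIR99021, a GSK3 inhibitor that activates WNT signalling. Each group had 3 libraries, each made from pooled structures that had been picked for an asymmetric pole, and nothing in the labels says that libraries came from separate cultures. P-values therefore measure the spread between libraries, which may be technical. The 96h group was collected at 96 h from 10 pooled structures a library. The other groups were collected at 120 h from 6 pooled structures a library, so time and pool size cannot be told apart in comparisons with 96h. Gastruloid structures followed the Beccari protocol without Matrigel. TLSMG structures (trunk-like structures) were grown in Matrigel, a basement membrane gel, TLSMGC structures in Matrigel with CHIR99021, and TLSMGCL structures as TLSMGC plus LDN, which inhibits BMP receptors.

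Hedgehog ligands are released from the node, notochord, floor plate and gut endoderm and pattern the ventral neural tube and the sclerotome of the somites. Ligand bound to Ptch1, with coreceptors such as Boc, relieves the block on Smo, and the Gli transcription factors are then turned from repressors into activators, mainly at the primary cilium. Ptch1, Gli1 and Hhip are direct targets of the pathway, so their transcripts are commonly used as readouts of signalling, while Gli3 acts mostly as a repressor.

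The tables place Shh (ENSMUSG00000002633.4) on chromosome 5 at 28456815 to 28467256 and Noto (ENSMUSG00000068302.8) on chromosome 6 at 85423886 to 85428877, in build mm10. Ptch1 (ENSMUSG00000021466.12) lies on chromosome 13 at 63508328 to 63573598, Gli1 (ENSMUSG00000025407.7) on chromosome 10 at 127329882 to 127341974, and Hhip (ENSMUSG00000064325.4) on chromosome 8 at 79965851 to 80058006. Gli2 (ENSMUSG00000048402.14) lies on chromosome 1 at 118834132 to 119053619, and Gli3 (ENSMUSG00000021318.15) on chromosome 13 at 15463235 to 15730026. Smo (ENSMUSG00000001761.7) lies on chromosome 6 at 29735503 to 29761365, and Boc (ENSMUSG00000022687.12) on chromosome 16 at 44485049 to 44558897. Promoter sequence was read from RefSeq (GRCm38.p6), which gave windows for 6 of the 9 genes and none for Shh, Gli1 and Boc. The 250 bases before the start site are printed for Noto and Ptch1, which held a motif match, and for Hhip and Gli2, whose mean levels rose most among target genes and Gli genes. Capitals mark the matches.
Noto, chr6:85423636-85423885, plus strand: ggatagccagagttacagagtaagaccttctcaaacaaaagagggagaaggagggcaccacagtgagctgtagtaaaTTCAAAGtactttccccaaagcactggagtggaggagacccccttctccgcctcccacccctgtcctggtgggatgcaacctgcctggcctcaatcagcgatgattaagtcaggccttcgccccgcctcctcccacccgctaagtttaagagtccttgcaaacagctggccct
Ptch1, chr13:63565736-63565985, minus strand: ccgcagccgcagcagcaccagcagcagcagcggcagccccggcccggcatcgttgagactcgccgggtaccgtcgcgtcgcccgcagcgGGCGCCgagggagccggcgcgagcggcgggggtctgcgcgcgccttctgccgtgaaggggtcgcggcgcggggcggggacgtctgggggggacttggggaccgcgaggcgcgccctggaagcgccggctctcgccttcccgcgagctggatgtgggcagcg
Hhip, chr8:80058009-80058258, minus strand: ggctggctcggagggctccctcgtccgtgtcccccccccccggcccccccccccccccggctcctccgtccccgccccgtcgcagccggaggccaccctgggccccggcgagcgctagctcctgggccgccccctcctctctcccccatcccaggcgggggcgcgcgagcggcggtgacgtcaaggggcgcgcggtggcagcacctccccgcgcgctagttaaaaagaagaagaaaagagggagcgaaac
Gli2, chr1:119053620-119053869, minus strand: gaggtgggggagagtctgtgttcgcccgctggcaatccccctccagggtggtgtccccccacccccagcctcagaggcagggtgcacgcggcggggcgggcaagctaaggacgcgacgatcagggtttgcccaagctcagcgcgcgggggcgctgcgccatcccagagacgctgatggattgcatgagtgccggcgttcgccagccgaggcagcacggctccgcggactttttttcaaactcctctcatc

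Each window was searched on both strands for exact letters of 3 motifs, and no match overlapped another. The GLI motif GACCACCCA was in 0 of the 6 windows and in 0.225% of all 32851 RefSeq windows of the same length. With so rare a motif, 0 matches in 6 windows says little about these genes, and Gli1 was not searched. The TCF/LEF motif of WNT signalling (CTTTGAA or CTTTGAT) had 1 match, in Noto, on the strand opposite to the gene and 173 bases before the start, and 7.479% of all windows held it. The SMAD1/5 motif of BMP signalling (GGCGCC) had 1 match, in Ptch1, 161 bases before the start, and 9.586% of all windows held it. The Ptch1 start used by RefSeq lies inside the gene as the tables annotate it.

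Depth differed between libraries by a factor of 2.195, taken from coverage per unit of FPKM, and 13688 to 14494 genes per library reached 1 TPM. No pair of libraries held identical values. Lack of overlap between the libraries of compared groups was common among the tested genes. It held for 56.8% in Gastruloid against 96h, 58.4% in TLSMG against 96h and 52.3% in TLSMG against Gastruloid. The share was 52.4% in TLSMGC against TLSMG, 15.8% in TLSMGCL against TLSMGC and 54.7% in TLSMGCL against TLSMG. No share was taken for other pairs of groups, such as TLSMGC against 96h or Gastruloid against TLSMGC. The median of all tested genes moved by 0.143 (log2) in TLSMG against 96h, 0.134 in TLSMG against Gastruloid, -0.157 in TLSMGC against TLSMG and -0.184 in TLSMGCL against TLSMG, by 0.004 in Gastruloid against 96h and by -0.039 in TLSMGCL against TLSMGC. Some of the small differences of the tested genes are therefore also given relative to these medians. Among markers of the labelled tissues, the 5 somite genes summed to 520 to 956 TPM in every library.

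The ligand Shh was low everywhere and highest in the 120 h groups without added CHIR99021. It measured 0.53, 0.415 and 0.344 TPM in the 96h libraries, 1.07, 1.41 and 1.45 TPM in Gastruloid, and 1.8, 0.883 and 1.57 TPM in TLSMG. In TLSMGC it measured 0.7, 0.658 and 0.52 TPM, and in TLSMGCL 0.225, 0.385 and 0.185 TPM. All Gastruloid and TLSMG libraries lay above all others, those 2 groups overlapped each other, and 96h overlapped both TLSMGC and TLSMGCL. Bulk libraries cannot tell fewer cells that express a gene from less RNA per cell.

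Mean Shh was 1.31 ± 0.208 TPM in Gastruloid and 1.42 ± 0.478 TPM in TLSMG (SD, n = 3), which are 3.06 and 3.3 times the 96h mean of 0.43 ± 0.0939 TPM. With no expression filter, limma's test on log2(TPM + 1) gave adjusted p-values of 0.00258 and 0.0014 for these rises. In the same fit Shh fell in TLSMGC against TLSMG, by 0.55 ± 0.13 (log2, SE) with an adjusted p of 0.0109. The difference between TLSMGCL and TLSMGC was -0.36 ± 0.13 with an adjusted p of 0.398. Their libraries did not overlap, as in 15.8% of the genes past the filter. That fit, without the filter, called 22.1% of 29971 genes in Gastruloid against 96h, 25.7% in TLSMG against 96h, 18.1% in TLSMG against Gastruloid, 20.8% in TLSMGC against TLSMG, 0.47% in TLSMGCL against TLSMGC and 22.9% in TLSMGCL against TLSMG. The Shh levels rest on few reads: over its 2847 exonic bases, Shh coverage equalled 10.96 to 182.33 read lengths of 75 bases per library. Antisense Gm26894 and 9530036O11Rik share 361 and 446 exonic bases with Shh and reached at most 0.475 and 0.073 TPM. Whether the counting used strand is not given in the sources used here.

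Ihh, the related ligand made by gut endoderm and cartilage, was also low. It averaged 0.26 TPM in 96h, 1.17 in Gastruloid, 1.78 in TLSMG, 1.19 in TLSMGC and 0.42 in TLSMGCL. With no filter, limma's adjusted p was 0.0185 for its rise in Gastruloid and 0.00206 for that in TLSMG, both against 96h. Ihh did not pass that test in TLSMGC against TLSMG (log2 difference -0.35 ± 0.21, SE, adjusted p 0.315), where Shh did. Whether the changes of Shh and Ihh differ was not tested. The Ihh libraries overlapped there, at 2.35, 0.952 and 2.05 TPM in TLSMG and 0.848, 1.92 and 0.793 TPM in TLSMGC. By the same test Ihh was lower in TLSMGCL than in TLSMG (-0.93 ± 0.21, adjusted p 0.0072). Dhh was at or below 0.0462 TPM in all 15 libraries.

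Noto was found at 96 h. It measured 0.303, 0.447 and 0.336 TPM in the 96h libraries and 0.0427 TPM in Gastruloid replicate 2, and was listed at 0 in the other 11 libraries. No library at 120 h overlapped the 96h group. A value of 0 may mean that StringTie gave no estimate, and no fold change is given. Foxa2, a factor of node, floor plate and endoderm, averaged 5.31 ± 2.66 TPM at 96 h and 4.59 ± 0.332 TPM in Gastruloid, with an adjusted p of 0.828 (limma).

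Ptch1, the receptor and target gene, moved little. It measured 32.4, 29.4 and 28.6 TPM in 96h, 28.9, 30.2 and 30.2 TPM in Gastruloid and 38.5, 31.6 and 34.9 TPM in TLSMG. With CHIR99021 it measured 28.4, 28.9 and 24.6 TPM in TLSMGC and 25.8, 19.5 and 24 TPM in TLSMGCL. In the order of means, TLSMG, 96h, Gastruloid, TLSMGC and TLSMGCL, every neighbouring pair of groups overlapped, and the highest mean was 1.52 times the lowest. Groups further apart could separate: TLSMG lay above Gastruloid, TLSMGC and TLSMGCL without overlap. The same order without overlap held for 39.4%, 38.8% and 42.3% of all tested genes. Ptch1 fell in TLSMGCL against TLSMG by 0.58 ± 0.1 (log2, SE; adjusted p 0.000527, limma), which is 0.4 beyond the median of all genes.

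Smo, the transducer of the signal, was the most abundant of the 9 genes and the steadiest. Its libraries lay between 125 and 152 TPM, a ratio of 1.22, with means of 137 ± 4.69 TPM in 96h, 130 ± 4.32 in Gastruloid, 146 ± 7.68 in TLSMG, 133 ± 6.08 in TLSMGC and 129 ± 4.23 in TLSMGCL. Neighbouring groups in the order of means overlapped, but TLSMG lay above Gastruloid, TLSMGC and TLSMGCL without overlap. That held for 39.4%, 38.8% and 42.3% of all tested genes. Smo passed the test in 2 comparisons, higher in TLSMG than in Gastruloid by 0.17 ± 0.06 (log2, SE; adjusted p 0.0276, limma) and lower in TLSMGCL than in TLSMG by 0.18 ± 0.06 (adjusted p 0.0169). Relative to the median of all genes these differences were 0.04 and 0. The direction depended on scaling: with median-of-ratios scaling the values were 0.00 and 0.02, with FPKM in place of TPM -0.00 and -0.05, and with GC and length correction 0.04 and 0.12. The summed level of 6 primary cilium genes ran from 123 to 155 TPM over the 15 libraries.

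Boc, a coreceptor that binds the ligand at the cell surface, separated the groups widely. It measured 25.5, 18.4 and 17 TPM in 96h, 64.7, 61.3 and 67.5 TPM in Gastruloid and 65.7, 82.7 and 80.3 TPM in TLSMG. The CHIR99021 groups were lower, at 29.3, 28.3 and 27.1 TPM in TLSMGC and 31.6, 24.5 and 31.5 TPM in TLSMGCL. Gastruloid and TLSMG overlapped each other and lay above every other library. Of all tested genes, 56.8% did not overlap in Gastruloid against 96h and 58.4% in TLSMG against 96h. The share was 52.4% in TLSMGC against TLSMG and 54.7% in TLSMGCL against TLSMG. TLSMGC lay narrowly above 96h, at 27.1 against 25.5 TPM, and no share of all genes was taken for that pair. Boc rose 3.18-fold in mean TPM from 96h to Gastruloid (log2 difference 1.64 ± 0.14, adjusted p 5.69e-07, limma) and 3.76-fold from 96h to TLSMG (1.87 ± 0.14, adjusted p 1.39e-07). It was 2.7 times lower in TLSMGC than in TLSMG (-1.4 ± 0.14, adjusted p 4.01e-06).

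Gli1, the target gene that encodes an activator, was highest in Gastruloid and TLSMG and lowest with both agents. It measured 6.39, 4.39 and 4.37 TPM in 96h, 7.76, 8.87 and 8.79 TPM in Gastruloid and 7.65, 6.5 and 8.49 TPM in TLSMG. TLSMGC gave 3.47, 2.8 and 2.62 TPM and TLSMGCL 1.84, 1.62 and 1.55 TPM. Apart from Gastruloid and TLSMG, which overlapped, no neighbouring groups in the order of means overlapped. TLSMG and 96h nearly touched, at 6.5 against 6.39 TPM. Of all tested genes, 58.4% did not overlap in that pair and 15.8% in TLSMGCL against TLSMGC. No such share was taken for TLSMGC against 96h. The Gastruloid mean was 5.07 times the TLSMGCL mean. Gli1 rose from 96h to Gastruloid (log2 difference 0.66 ± 0.14, adjusted p 0.00179, limma) and to TLSMG (0.51 ± 0.14, adjusted p 0.00829). It fell from TLSMG to TLSMGC (-1.11 ± 0.14, adjusted p 3.36e-05) and from TLSMG to TLSMGCL (-1.67 ± 0.14, adjusted p 7.22e-07). Gli1 shares 265 exonic bases with antisense Gm47200, listed at up to 0.121 TPM, and 62 with Arhgap9 on the other strand, at 0.446 to 0.934 TPM.

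Hhip, a membrane protein that binds and sequesters the ligand and is itself a target gene, was low and varied widely. It measured 0.237, 0.0922 and 0.0977 TPM in 96h, 0.648, 0.617 and 1.42 TPM in Gastruloid and 2.08, 0.898 and 0.869 TPM in TLSMG. TLSMGC gave 0.144, 0.252 and 0.0698 TPM and TLSMGCL 0.0145, 0.14 and 0.0317 TPM. Gastruloid and TLSMG overlapped each other and lay above the other 3 groups, which overlapped among neighbours. With no filter, limma's adjusted p was 0.0181 for the rise from 96h to Gastruloid, 0.00254 for that to TLSMG, and 0.00364 for the fall from TLSMG to TLSMGC, where the mean was 8.24 times lower.

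Gli2, the main activator, was lowest at 96 h. It measured 7.72, 9.43 and 9.96 TPM in 96h, 34.9, 34.5 and 38.5 TPM in Gastruloid and 29.2, 34.9 and 37.1 TPM in TLSMG. TLSMGC gave 26.4, 23.5 and 24.1 TPM and TLSMGCL 33.9, 23.9 and 32.2 TPM. All 12 libraries at 120 h lay above the 96h libraries, and among the 120 h groups each overlapped its neighbour in the order of means. TLSMGC lay below TLSMG without overlap, as in 38.8% of all tested genes. The rise was 3.98-fold in mean TPM to Gastruloid (log2 difference 1.89 ± 0.13, adjusted p 8.92e-08, limma) and 3.73-fold to TLSMG (1.79 ± 0.13, adjusted p 1.32e-07).

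Gli3, the main repressor, stood highest in Matrigel alone. It measured 47.3, 44.1 and 48 TPM in 96h, 45.7, 39.8 and 44.2 TPM in Gastruloid and 64.9, 64.4 and 66.4 TPM in TLSMG. TLSMGC gave 47.1, 51.6 and 42.7 TPM and TLSMGCL 50.3, 28.6 and 44.6 TPM, where replicate 2 was the lowest of the 15 libraries. TLSMG lay above all other libraries, and the other 4 groups overlapped their neighbours in the order of means. Gli3 shares 188 exonic bases with Gm6556 on the other strand, listed at 0.966 to 2.75 TPM.

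**Figure D1:**
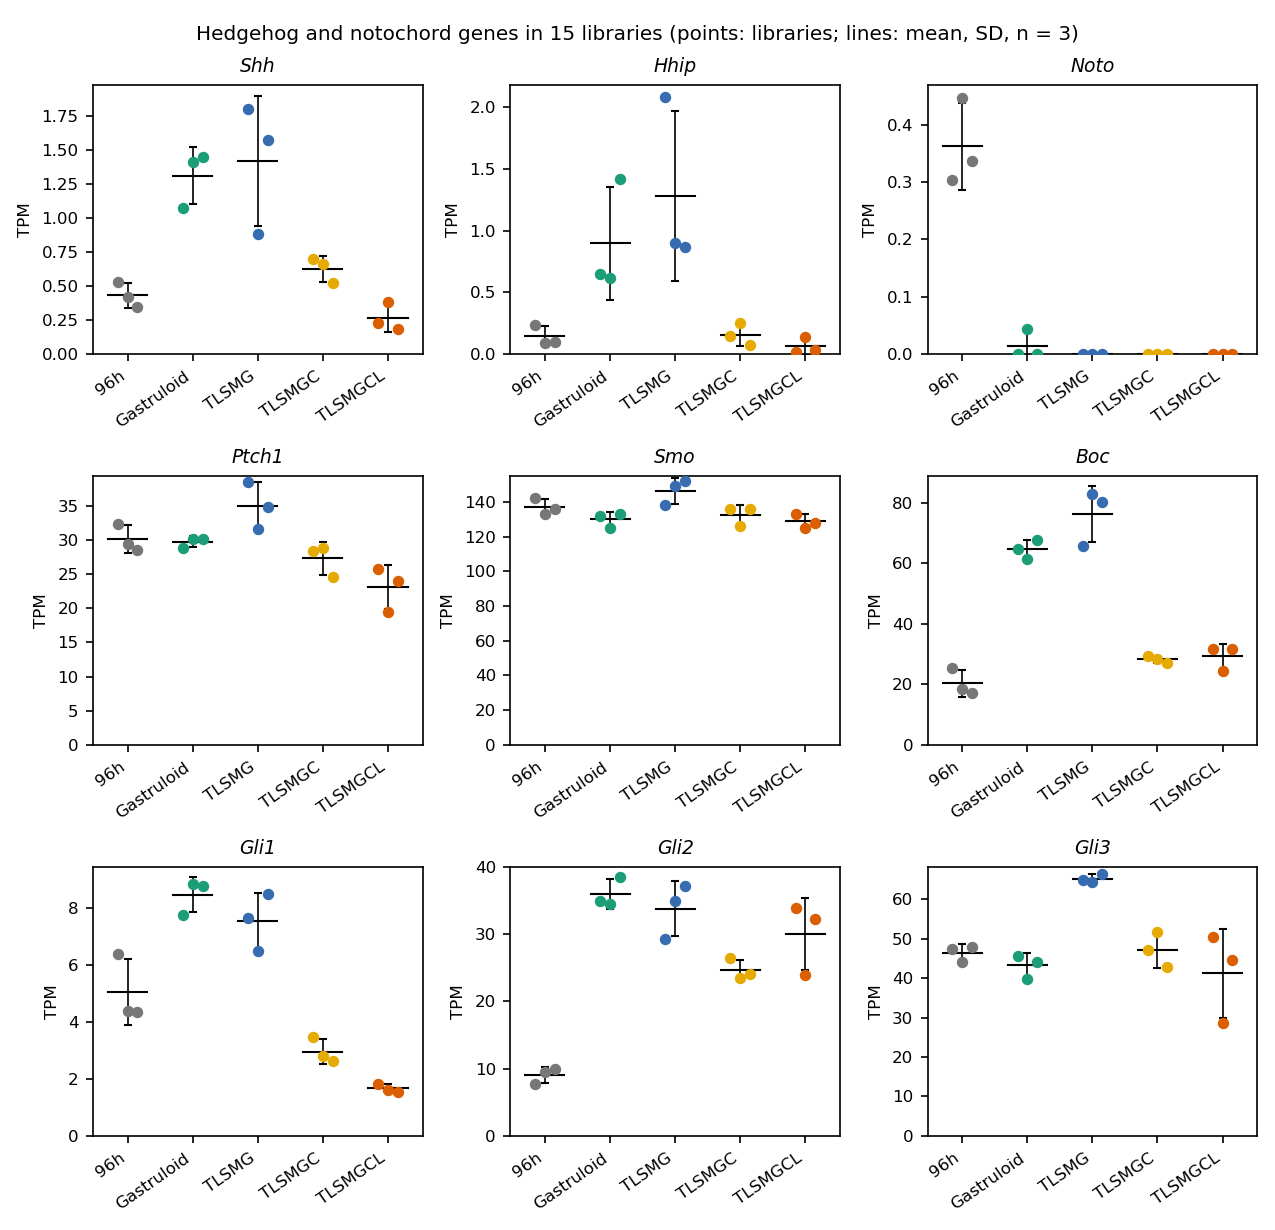
TPM of the 9 genes (vertical axes, each from 0) in the 5 groups (horizontal axes); points are libraries, long lines means and error bars SD (n = 3). Shh, Hhip, Boc and Gli1 are high in Gastruloid and TLSMG and low in TLSMGC and TLSMGCL, Gli2 is low at 96h, Gli3 is high in TLSMG, and Smo lies between 125 and 152 TPM throughout.

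Gastruloid against 96h compared 120 h with 96 h in the absence of Matrigel. Of the 6 tested genes, 3 rose (Gli1, Gli2 and Boc) and 0 fell, while over all tested genes 41.2% were called, 20.8% higher and 20.5% lower. The median log2 difference of the 6 was 0.32 against 0.004 for all genes. Ptch1 gave -0.02 with a 95% interval of -0.24 to 0.21, Gli3 gave -0.1 (-0.43 to 0.22) and Smo -0.08 (-0.2 to 0.04).

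The same change with Matrigel was tested as TLSMG against 96h, which shares the 96h libraries with the comparison before it. Here 4 of 6 rose (Gli1, Gli2, Gli3 and Boc) and 0 fell, with 46.0% of all genes called (33.5% higher and 12.5% lower). The median of the 6 was 0.5 against 0.143 for all genes. Gli3 rose by 0.48 ± 0.15 (log2, SE; adjusted p 0.018, limma), but its adjusted p was 0.0659 with median-of-ratios scaling and 0.0582 without 96h replicate 2. With that scaling 22.4% of all genes rose and 23.1% fell, where 33.5% rose and 12.5% fell with TPM as deposited.

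Matrigel itself was tested as TLSMG against Gastruloid at 120 h. In this comparison 2 of 6 rose (Gli3 and Smo) and 0 fell, with 39.3% of all genes called (31.5% higher and 7.87% lower), or 19.3% higher and 18.2% lower with median-of-ratios scaling. Gli3 was 0.58 ± 0.15 higher (log2, SE; adjusted p 0.00805, limma), 0.45 beyond the median of all genes. Smo lost its call with median-of-ratios scaling (adjusted p 0.996), and without Gastruloid replicate 1 or 2 or TLSMG replicate 2 or 3 (0.0506 to 0.103). Gli1 differed by -0.15 (95% interval -0.45 to 0.14), Gli2 by -0.1 (-0.38 to 0.18) and Boc by 0.23 (-0.06 to 0.53). Shh and Hhip did not pass the test with no filter (adjusted p 0.911 and 0.429, limma).

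CHIR99021 added to Matrigel was tested as TLSMGC against TLSMG. Here 5 of 6 fell (Ptch1, Gli1, Gli2, Gli3 and Boc) and 0 rose, with 40.9% of all genes called (10.4% higher and 30.5% lower), or 18.3% higher and 18.8% lower with median-of-ratios scaling. The median of the 6 was -0.45 against -0.157 for all genes. Gli1 and Boc were called in every scaling run. Ptch1 (-0.35 ± 0.1, adjusted p 0.0162, limma), Gli2 (-0.43 ± 0.13, adjusted p 0.0175) and Gli3 (-0.46 ± 0.15, adjusted p 0.0245) lost their calls with median-of-ratios scaling, at adjusted p-values of 0.127, 0.0582 and 0.0827, and with GC and length correction, at 0.221, 0.062 and 0.207. Ptch1 also lost it with FPKM (0.0538) and Gli3 with no filter (0.0555). Their calls were also lost on leaving out single libraries: for Ptch1 TLSMG replicate 1 or TLSMGC replicate 3 (0.0673 and 0.0738), and for Gli2 replicates 2 or 3 of either group (0.0504 to 0.0736). For Gli3 they were any TLSMG replicate or TLSMGC replicate 1 or 3 (0.0522 to 0.0913). With GC and length correction Smo was higher by 0.14 (adjusted p 0.0169), where TPM as deposited gave -0.14 (adjusted p 0.0633). Without TLSMG replicate 1 Smo was called lower, by 0.18 (adjusted p 0.0276).

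LDN on top of CHIR99021 was tested as TLSMGCL against TLSMGC. By limma 0 of 6 changed, with 1.18% of all genes called (0.406% higher and 0.777% lower). At an unadjusted p under 0.05 there were 2 of 6, Ptch1 and Gli1, against 1850 of all 14290 tested genes. Gli1 was lower by 0.57 ± 0.14 (log2, SE), its libraries did not overlap, as in 15.8% of tested genes, and its adjusted p was 0.0744. That adjusted p was 0.0407 with a pseudocount of 0.1 and 0.0339 without 96h replicate 1. Ptch1 gave -0.24 (95% interval -0.46 to -0.01, adjusted p 0.349), Gli2 0.26 (-0.02 to 0.54) and Boc 0.04 (-0.25 to 0.33).

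Both agents together were tested as TLSMGCL against TLSMG, which shares the TLSMG libraries with the CHIR99021 comparison. Of the 6 genes 5 fell (Ptch1, Gli1, Gli3, Smo and Boc) and 0 rose, with 44.9% of all genes called (9.31% higher and 35.6% lower), or 19.1% higher and 20.0% lower with median-of-ratios scaling. The median of the 6 was -0.64 against -0.184 for all genes. Gli3 fell by 0.69 ± 0.15 (log2, SE; adjusted p 0.00229, limma) and Boc by 1.36 ± 0.14 (adjusted p 4.1e-06). Gli2 differed by -0.17 (95% interval -0.45 to 0.11). Smo lost its call without TLSMG replicate 2 or 3 or TLSMGCL replicate 2 (adjusted p 0.0579 to 0.0699) and was higher by 0.12 with GC and length correction (0.0287). Shh and Hhip, tested with no filter, fell with adjusted p-values of 0.000369 and 0.00153, their means 5.35 and 20.7 times lower. The Hhip ratio was 55.5 without TLSMGCL replicate 2.

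**Figure D2:**
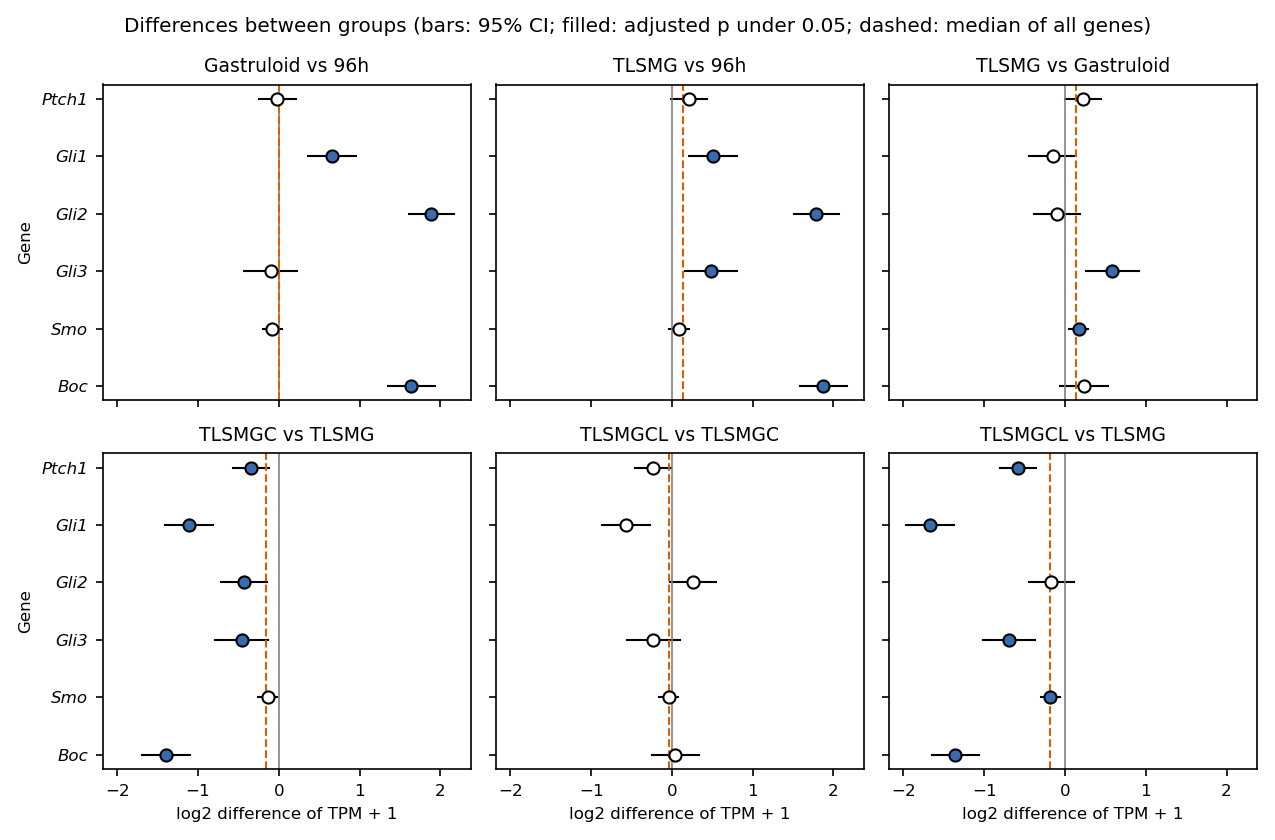
Log2 difference of TPM + 1 (horizontal axis) for the 6 tested genes (vertical axis) in the 6 comparisons; bars are 95% intervals, filled points have an adjusted p under 0.05, the grey line marks 0 and the dashed line the median of all tested genes. Gli1 and Boc lie right of the dashed line in both comparisons with 96h and left of it in TLSMGC and TLSMGCL against TLSMG, while Smo lies near it in every panel.

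Among the 5 groups, limma's moderated F test called 5 of 6 genes, against 73.5% of all genes, and Smo missed the threshold with an adjusted p of 0.0501. Among the 4 groups at 120 h it called 6 of 6, against 62.7% of all genes. That count was 5 with median-of-ratios scaling and with FPKM, where Smo was lost, and 5 with GC and length correction, where Gli2 was lost. In these fits 8657, 8738 and 8020 of all 14290 genes were called. Among the 5 groups, GC and length correction called 6 of 6, against 9998 of all genes.

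The balance of the Gli genes differed between groups. The ratio of Gli2 to Gli3 TPM was 0.163, 0.214 and 0.208 in the 96h libraries, 0.762, 0.868 and 0.871 in Gastruloid and 0.449, 0.542 and 0.559 in TLSMG. It was 0.561, 0.455 and 0.566 in TLSMGC and 0.674, 0.837 and 0.722 in TLSMGCL. The 96h libraries were lowest, Gastruloid and TLSMGCL were highest and overlapped, and TLSMG overlapped TLSMGC between them. These are transcript ratios and say nothing of protein or its processing. Gli1 over Ptch1, the ratio of the pair of target genes, averaged 0.166 ± 0.0265 in 96h, 0.284 ± 0.0139 in Gastruloid, 0.216 ± 0.024 in TLSMG, 0.108 ± 0.0127 in TLSMGC and 0.073 ± 0.00919 in TLSMGCL (SD, n = 3). No 2 groups overlapped in it, but 96h, at up to 0.197, and TLSMG, from 0.199, nearly touched. No background from ratios of other gene pairs was taken. Multiplying a library by 1 factor leaves such a ratio as it is, whereas GC and length correction, which differs by gene, can change it.

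**Figure D3:**
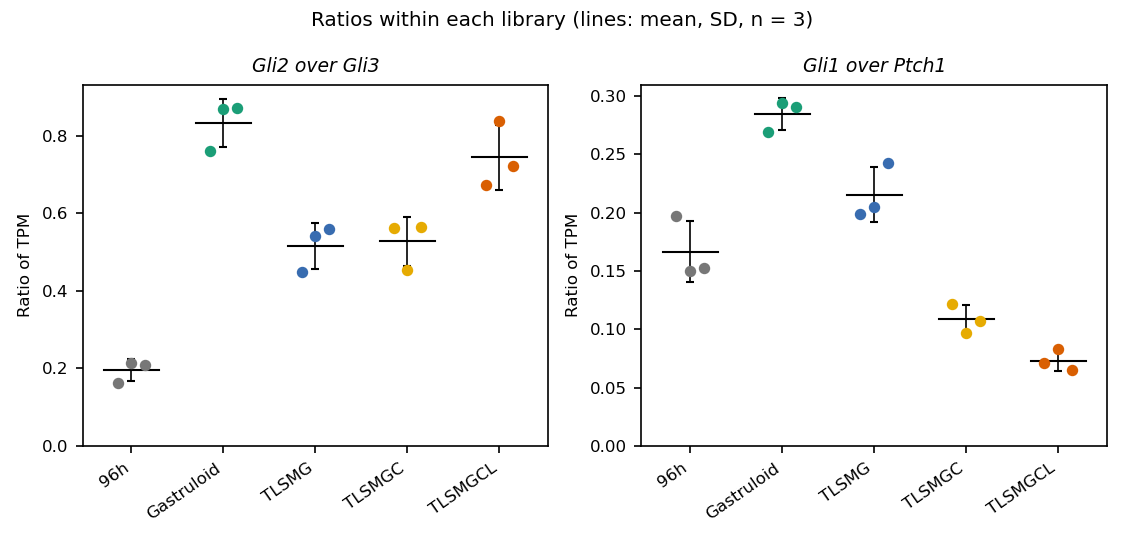
Ratio of TPM within each library (vertical axes, from 0) for Gli2 over Gli3 and Gli1 over Ptch1 in the 5 groups (horizontal axes); points are libraries, long lines means and error bars SD (n = 3). Gli2 over Gli3 is lowest at 96h, and Gli1 over Ptch1 is highest in Gastruloid and lowest in TLSMGCL.

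The rest of the pathway was read from a list of 27 genes, of which 24 were tested. From 96h to Gastruloid 9 rose and 5 fell, with a median log2 difference of 0.11, while 20.8% of all genes rose and 20.5% fell. From 96h to TLSMG 12 rose and 4 fell (median 0.26), while 33.5% of all genes rose and 12.5% fell. In TLSMG against Gastruloid 9 rose and 0 fell with TPM as deposited, but 4 rose and 2 fell with median-of-ratios scaling, where the all-gene shares were 31.5% and 7.87%, and 19.3% and 18.2%. In TLSMGC against TLSMG 2 rose and 12 fell (median -0.32), with 10.4% of all genes higher and 30.5% lower. With median-of-ratios scaling 4 rose and 9 fell, with 18.3% of all genes higher and 18.8% lower. LDN on top of CHIR99021 gave 0 rises and 1 fall, with 1.18% of all genes called. Both agents against TLSMG gave 1 rise and 14 falls (median -0.38), with 9.31% of all genes higher and 35.6% lower. Median-of-ratios scaling gave 2 rises and 8 falls there, with 19.1% of all genes higher and 20.0% lower.

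Among genes that release or carry the ligand, Scube2, a secreted carrier, changed most. It averaged 0.228 ± 0.115 TPM in 96h, 14.5 ± 4.56 in Gastruloid, 8.53 ± 5.49 in TLSMG, 0.0362 ± 0.0627 in TLSMGC and 0.221 ± 0.107 in TLSMGCL. Its log2 difference was 3.62 ± 0.33 in Gastruloid against 96h (adjusted p 1.26e-06, limma), 2.79 ± 0.33 in TLSMG against 96h and -3.03 ± 0.33 in TLSMGC against TLSMG. Its paralog Scube1 went the other way with CHIR99021, at 12.7 ± 3.65 TPM in TLSMG and 27.4 ± 4.28 TPM in TLSMGC (log2 difference 1.07 ± 0.24, adjusted p 0.00295). Scube3 was the only pathway gene called for LDN, at 9.98 ± 0.435 TPM in TLSMGC and 4.25 ± 1.29 TPM in TLSMGCL (-1.09 ± 0.17, adjusted p 0.00706), and its adjusted p was 0.104 in a fit of the compared groups alone. Without TLSMGC replicate 3 the count of pathway genes called for LDN was 2. Scube1 also had the largest called change of the pathway list in TLSMG against Gastruloid (0.77 ± 0.24, adjusted p 0.0211), which was lost with median-of-ratios scaling (0.0594), FPKM (0.0587), GC and length correction (0.0843) and no filter (0.054), and without Gastruloid replicate 2 or 3 or TLSMG replicate 1 (0.0721 to 0.0918).

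On the receptor side, the coreceptors Gas1 and Cdon also rose from 96h to Gastruloid and to TLSMG. Gas1 averaged 102 ± 19.8 TPM in 96h, 282 ± 71.9 in Gastruloid, 207 ± 21.5 in TLSMG, 74.8 ± 1.88 in TLSMGC and 62 ± 6.54 in TLSMGCL. It rose by 1.43 ± 0.17 in Gastruloid (log2, SE; adjusted p 1.72e-05, limma) and fell by 1.45 ± 0.17 in TLSMGC against TLSMG (adjusted p 1.91e-05). Cdon averaged 9 ± 1.57 TPM in 96h, 21.2 ± 1.14 in Gastruloid, 28.6 ± 3.85 in TLSMG, 22.4 ± 2.25 in TLSMGC and 20.6 ± 4.23 in TLSMGCL. Its fall in TLSMGC against TLSMG did not pass the test (-0.33 ± 0.15, adjusted p 0.0936), but did so without TLSMG replicate 1 (0.0483) or TLSMGCL replicate 2 (0.0406). Sufu, which holds Gli proteins in the cytoplasm, was lower in Gastruloid than in 96h, by 0.37 ± 0.07 (adjusted p 0.000985), at 44.8 ± 2.16 against 58.4 ± 3.12 TPM.

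**Figure D4:**
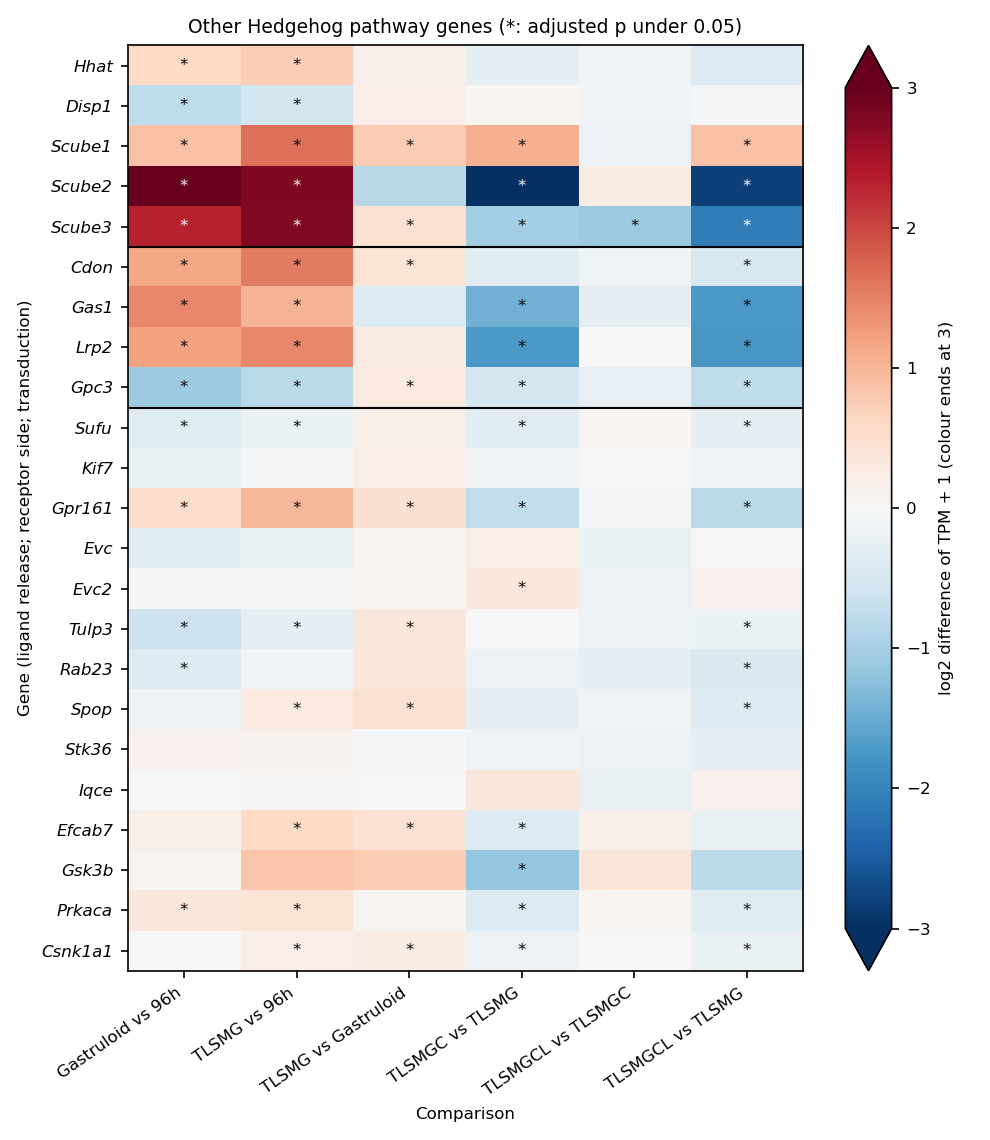
Log2 difference of TPM + 1 (colour, ending at 3 in either direction) for tested pathway genes (rows: ligand release, receptor side and transduction, divided by lines) in the 6 comparisons (columns); asterisks mark an adjusted p under 0.05. Scube2, Scube3, Cdon, Gas1 and Lrp2 rose in both comparisons with 96h, and Scube3 alone is marked in TLSMGCL against TLSMGC.

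Notochord, node and floor plate genes, 7 tested of 9 listed, moved in both directions: 2 rose and 3 fell from 96h to Gastruloid (3 called in all without 96h replicate 1 or 2), where 41.2% of all genes were called, and 2 rose and 2 fell in TLSMGC against TLSMG, where 40.9% were called. In the latter the fall of Nodal was lost with median-of-ratios scaling (adjusted p 0.0652), FPKM (0.0982), GC and length correction (0.133) and no filter (0.0857), and without TLSMG replicate 1 or 3 or TLSMGC replicate 2 (0.0951 to 0.145). T, or Brachyury, a factor of notochord and tailbud, averaged 110 ± 30.1 TPM at 96 h, 17.5 ± 4.48 in Gastruloid, 18.8 ± 1.88 in TLSMG, 44.3 ± 3.49 in TLSMGC and 33.6 ± 1.12 in TLSMGCL. It fell by 2.58 ± 0.19 from 96h to Gastruloid (log2, SE; adjusted p 2.19e-07, limma) and rose by 1.19 ± 0.19 in TLSMGC against TLSMG (adjusted p 0.000321). The 5 presomitic and tailbud markers, which include T, summed to 559 to 841 TPM in 96h, 21.8 to 48.1 in Gastruloid and TLSMG, and 138 to 210 in TLSMGC and TLSMGCL. Their part in the level of T or Noto was not tested. Nog, a secreted BMP antagonist, averaged 0.598 ± 0.102 TPM in Gastruloid, 3.33 ± 0.167 in TLSMG, 7.41 ± 0.795 in TLSMGC and 1.84 ± 0.321 in TLSMGCL. It was the gene of this list called for LDN (-1.57 ± 0.13, adjusted p 5.74e-05). Chrd, another BMP antagonist, was higher in TLSMGCL than in TLSMG by 0.65 ± 0.15 (adjusted p 0.00323). Foxa2 passed the test in none of the 6 comparisons. Spon1, a floor plate protein also made elsewhere, averaged 0.616 ± 0.0164 TPM in 96h, 8.54 ± 1.26 in Gastruloid, 6.99 ± 0.357 in TLSMG and 0.994 ± 0.237 in TLSMGC. The largest change of the list in TLSMG against 96h was that of Nodal, a signal of the node and early mesoderm, at 14.6 ± 3.51 TPM in 96h and 1.67 ± 0.481 TPM in TLSMG (-2.54 ± 0.24, adjusted p 1.65e-06).

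Ventral neural tube genes, 3 tested of 6 listed, had 2 rises and 0 falls from 96h to Gastruloid and 0 rises and 1 fall in TLSMGC against TLSMG, while 41.2% and 40.9% of all genes were called. Olig2, of motor neuron progenitors, averaged 0.568 ± 0.131 TPM in 96h, 3.47 ± 0.531 in Gastruloid and 2.56 ± 0.26 in TLSMG. In TLSMGC it was listed at 0, 0 and 0.112 TPM, and it fell there against TLSMG by 1.78 ± 0.13 (log2, SE; adjusted p 2.3e-07, limma). Nkx6-1, a ventral progenitor factor, averaged 3.69 ± 0.231 TPM in Gastruloid and 3.19 ± 1 in TLSMGC but 1.14 ± 0.181 in TLSMGCL, a fall of 0.94 ± 0.2 with LDN (adjusted p 0.0354). That call was lost without Gastruloid replicate 2 or 3, TLSMG replicate 1, TLSMGC replicate 1 or 2 or any TLSMGCL replicate (adjusted p 0.0502 to 0.115), with no filter (0.0862) and in a fit of the compared groups alone (0.156). Nkx2-2, which marks the most ventral progenitors, was at or below 0.152 TPM in every library. The 7 neural tube markers, which include Olig2 and Nkx6-1, had sums of 57.3 to 69.4 TPM in 96h libraries and 237 to 331 TPM in Gastruloid libraries. TLSMG sums were 144 to 220 TPM, TLSMGC sums 47 to 54.8 TPM and TLSMGCL sums 51.7 to 59.8 TPM. The part of that sum in the levels of Boc, Gli1 and Olig2 was not tested.

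Sclerotome genes, 4 tested of 5 listed, had 3 rises and 1 fall from 96h to Gastruloid and to TLSMG, and 0 rises and 4 falls in TLSMGC against TLSMG (0 and 3 with GC and length correction). Of all genes, 41.2%, 46.0% and 40.9% were called in these comparisons. Pax1, which is induced by Hedgehog signal in ventral somites, averaged 17 ± 3.81 TPM in TLSMG, 0.266 ± 0.0744 in TLSMGC and 0.171 ± 0.0797 in TLSMGCL. It was lower in TLSMG than in Gastruloid by 1.82 ± 0.14 (log2, SE; adjusted p 8.59e-06, limma), the comparison in which Gli1 and Boc did not pass the test. Pax9 averaged 3.58 ± 0.356 TPM in Gastruloid, 1.55 ± 0.269 in TLSMG and 0.377 ± 0.229 in TLSMGC.

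The gut endoderm, a source of Shh and Ihh, was followed by 8 markers. Their sum per library ran from 252 to 419 TPM in 96h, while Gastruloid libraries had 142 to 194 TPM and TLSMG libraries 97.9 to 147 TPM. With CHIR99021 the sums were 53.2 to 88.4 TPM, and with both agents 62.2 to 84.6 TPM. Much of the 96h sum was Trh, a hormone precursor gene, at 141 to 267 TPM in 96h and 42.9 to 68.2 TPM in Gastruloid. Without Trh, the other 7 summed to 112 to 152 TPM in 96h and 98.7 to 126 TPM in Gastruloid, which overlapped, and to 86.7 to 129 TPM in TLSMG, 40.5 to 76.3 TPM in TLSMGC and 44.9 to 62.8 TPM in TLSMGCL. Single markers differed in direction from 96h to Gastruloid: the endoderm factor Foxa1 rose by 1.27 ± 0.19 (log2, SE; adjusted p 0.00013, limma) and the cadherin Cdh1 fell by 1.44 ± 0.19 (adjusted p 4.59e-05). From TLSMG to TLSMGC the sum without Trh and Shh were both lower in every library, but the markers did not all fall. Foxa1, Cdh1, Cldn6, Krt8 and Krt18 were called lower there. Sox17 (log2 difference 0.24, adjusted p 0.727, limma), Epcam (-0.44, adjusted p 0.158) and Trh (-0.36, adjusted p 0.238) were not called. The part of the sum in the level of Shh was not tested.

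**Figure D5:**
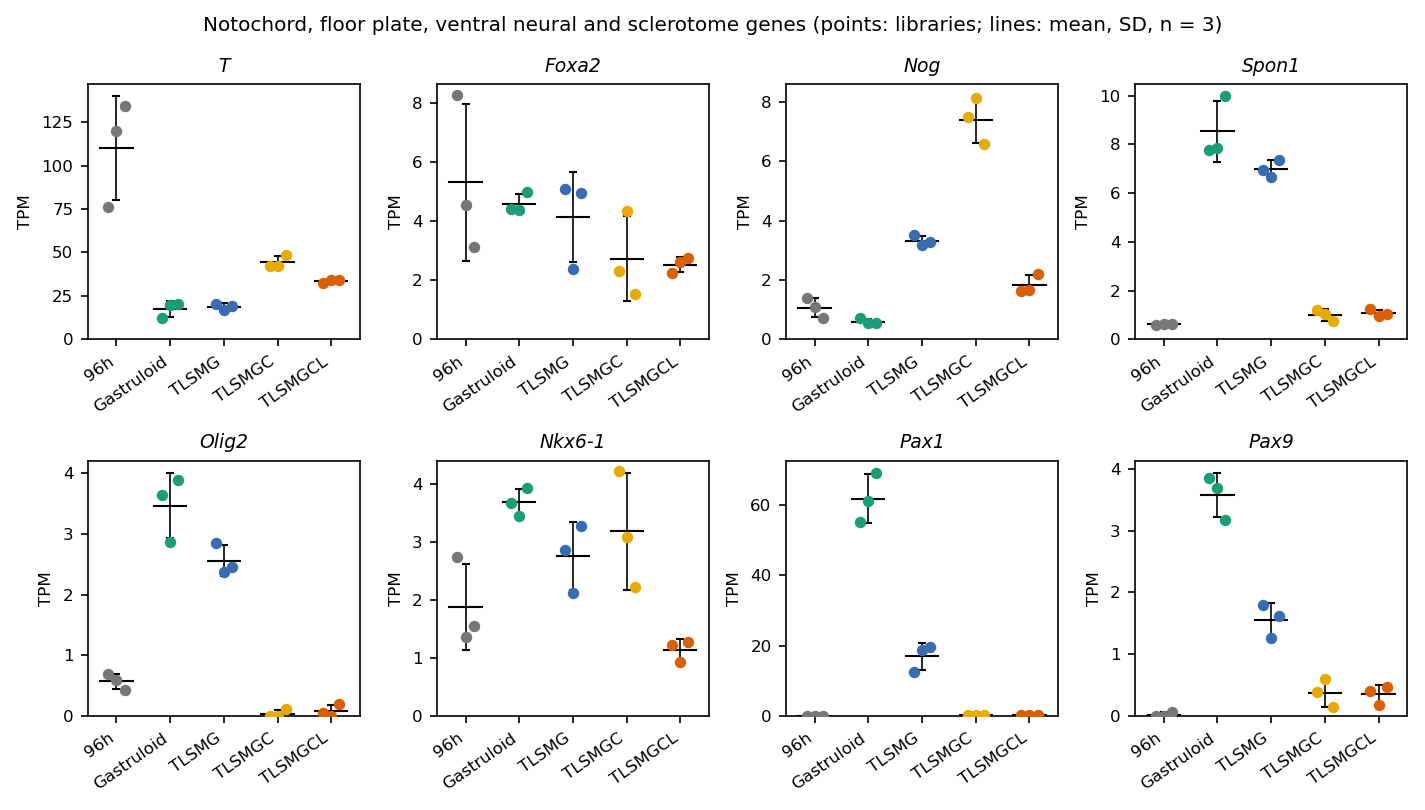
TPM (vertical axes, each from 0) of 8 genes of notochord, floor plate, ventral neural tube and sclerotome in the 5 groups (horizontal axes); points are libraries, long lines means and error bars SD (n = 3). Spon1, Olig2, Pax1 and Pax9 are high in Gastruloid and TLSMG, T is highest at 96h, Nog is highest in TLSMGC, and Foxa2 libraries range from 1.55 to 8.27 TPM.

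Genes with the pattern most like 3 of the members were ranked by Pearson's r of log2(TPM + 1) over the 15 libraries, among 10904 genes with a mean of at least 5 TPM. The libraries fall into 5 groups, so r describes the pattern of group means and is no test. For Ptch1 the nearest were Gtf2a1 (r = 0.931), Has2, Lix1l, Adamts9 and Aida (0.918). For Gli1 they were Ckap4 (r = 0.963), Ltbp1, 2700033N17Rik, Nectin2 and 6330403K07Rik (0.948), and Ltbp1 averaged 28.3 TPM in 96h, 41.8 in TLSMG and 14.8 in TLSMGCL. For Gli2 they were Sipa1l2 and Tgfb3 (both r = 0.992), Pard6b, Entpd4b and Prr36 (0.978). Tgfb3, a growth factor, averaged 1.13 TPM in 96h and 9.09 in Gastruloid. Reads of Entpd4b may be split with a near-identical paralog, so its value is uncertain.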

How the data were processed

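Gene abundance tables, 1 per bulk library, were deposited by the authors. Per the submitters' processing notes the tools included cutadapt 2.4, STAR 2.7.3a and StringTie 2.0, with build mm10. The deposited TPM and FPKM values, per the file headers, are abundances per gene, with replicates kept apart. The deposited coverage, per the file headers the average coverage of each gene, was used only for depth. Read counts per gene were not used, so no counting intervals are given and a 0 is reported as listed at 0. Of 54446 gene IDs, 54409 matched GENCODE M21 53492 of them at the same position. Repeated rows of a gene ID, 7 to 13 a library, were summed.

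limma 3.58.1 in R 4.3.3 was run on log2(TPM + 1) of the 14290 genes with a mean of at least 1 TPM, in 1 model of 5 groups with a mean trend, and was tested on simulated data. P-values were two-sided and adjusted (Benjamini-Hochberg) separately in each of 6 comparisons, with a threshold of 0.05. Log2 differences on this scale understate changes of low genes. Python 3.11.15 with pandas 2.3.3 did the rest. Alternatives changed the filter, the pseudocount, the scaling, the groups in the fit, the replicate block, GC and length correction and the smallest difference, and left out each library in turn.

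The members and lists were chosen with earlier results of these data known. All 9 members were named, with set genes of each list, the gene of each list that changed most in a comparison, and the 5 nearest genes by correlation for Ptch1, Gli1 and, since Shh and Hhip were below the filter, Gli2. Replicate numbers appear in the labels of every group. Deviations of same-numbered libraries correlated at -0.181 to 0.104 (mean -0.03), so the numbers were not taken as pairs. Some listed genes that the rule names are counted but not reported singly here. The single-cell samples were not analysed here.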

Additional observations from a re-analysis of the deposited data

Results flagged for a closer look

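The change of Gli3 from 96 h to 120 h differed between structures with and without Matrigel. The change with Matrigel minus the change without was 0.58 (log2), which is the TLSMG against Gastruloid comparison (adjusted p 0.00805, limma). All 3 TLSMG libraries lay above all 3 Gastruloid libraries, as in 39.4% of all tested genes. The same difference for Smo was 0.17 (adjusted p 0.0276), against a median of 0.134 over all genes, and it was 0.00 with median-of-ratios scaling.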

How the results depend on the processing

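The counts of the 6 tested genes called were 3, 4, 2, 5, 0 and 5 in Gastruloid and TLSMG against 96h, TLSMG against Gastruloid, TLSMGC against TLSMG, and TLSMGCL against TLSMGC and against TLSMG. Leaving out each library gave 3 to 3, 3 to 4, 1 to 2, 2 to 5, 0 to 1 and 4 to 5, and 5 to 6 in both F tests. TLSMG against Gastruloid fell to 1 without Gastruloid replicate 1 or 2 or TLSMG replicate 2 or 3, TLSMGC against TLSMG to 3 without TLSMG replicate 2 or 3 and to 2 without TLSMGC replicate 3, and TLSMGCL against TLSMGC rose to 1 without 96h replicate 1. With no filter, 6 and 7 of 9 genes changed against 96h in Gastruloid and TLSMG, and 9 of 9 differed among the 5 groups, where 22.1%, 25.7% and 40.2% of all genes did. The endoderm sum without Trh and ratios of means without each library were added after seeing the data; of the ratios, those of Hhip moved by over 1.5 times without TLSMGCL replicate 2 (TLSMGC over TLSMGCL from 2.51 to 6.73, TLSMG over TLSMGCL from 20.7 to 55.5). TLSMG against Gastruloid gave 1 with median-of-ratios scaling, FPKM, only the compared groups, and GC and length correction with or without the block. TLSMGC against TLSMG gave 2 with median-of-ratios scaling and 3 with GC and length correction with or without the block. TLSMGCL against TLSMGC gave 1 with a pseudocount of 0.1. A smallest log2 difference of 1 left 2, 0, 2 and 2 in TLSMG against 96h and Gastruloid, TLSMGC against TLSMG and TLSMGCL against TLSMG, and 1037, 1303, 436, 880, 46 and 973 of all genes in the 6 comparisons. All-gene counts also moved to 42 from 169 in TLSMGCL against TLSMGC with only the compared groups, to 56, 70 and 78 without TLSMGC replicate 2 and TLSMGCL replicates 1 and 3, and to 3495 from 5622 in TLSMG against Gastruloid with GC and length correction (3177 with the block). The causes were not tested.

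The fit with the replicate number as a block called 3, 4, 2, 5, 0 and 5 of the 6 genes, and 5659, 6381, 5382, 5599, 122 and 6187 genes in all. Changes of sign are given with, for single libraries, the range over libraries left out. Ptch1 in Gastruloid against 96h became 0.07 with FPKM, 0.01 with GC and length correction with or without the block, and 0.04 and 0.01 without 96h replicate 1 and Gastruloid replicate 1 (range -0.05 to 0.04). Smo became 0.01 with FPKM in Gastruloid against 96h, -0.08 with median-of-ratios scaling and -0.03 with GC and length correction with or without the block in TLSMG against 96h, and -0.00 with FPKM in TLSMG against Gastruloid. With CHIR99021, Smo against TLSMG became 0.02 with median-of-ratios scaling and 0.14 with GC and length correction with or without the block, and with both agents 0.02 and 0.12. Gli2 became 0.00 in TLSMG against Gastruloid without TLSMG replicate 1 (range -0.17 to 0.00) and 0.02 in TLSMGCL against TLSMG with median-of-ratios scaling. In TLSMGCL against TLSMGC, Gli3 became 0.01 without TLSMGCL replicate 2 (range -0.39 to 0.01) and Boc -0.02 without TLSMGCL replicate 1 or 3 (range -0.02 to 0.16). Changes of sign numbered 15 under alternatives with all libraries and 6 on leaving out a library. Some of them, as for Smo with GC and length correction, also changed a call. Apart from these, calls were lost in 18 and gained in 1 of the member differences with all libraries. On leaving out a library they were lost in 19 and gained in 2. The others, 326 and 513, kept direction and side of the threshold. Reads per gene are unknown, which limits Shh, Hhip and Noto most.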
